A study of Arabidopsis thaliana with 12 samples.

Results

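The transcripts of 50 nuclear genes for the light-harvesting antenna, the photosystems, photosynthetic electron carriers and the carbon-fixing enzyme Rubisco were measured in whole Arabidopsis thaliana seedlings of 4 genotypes. The genes were chosen by locus identifier and fall into 7 subfamilies. They are 6 LHCA genes (antenna of photosystem I), 15 LHCB genes (antenna of photosystem II), 12 PSA genes (photosystem I subunits), 9 PSB genes (photosystem II subunits), 3 PET genes (the Rieske protein and plastocyanins), 4 RBCS genes (Rubisco small subunit) and RCA (Rubisco activase). Of 20869 genes with a value in any library, 49 were members, and all 49 were among the 19656 genes tested. RBCS1B had no value in any library, and 47 members were listed in all 12 libraries.

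The 12 poly-A RNA libraries hold 3 each of WT, smxl5-1, the double mutant smxl4-1 smxl5-1 and smax1-2, all in the Col background. SMXL4, SMXL5 and SMAX1 belong to a family of proteins related to heat-shock proteins, and the series compares genes that depend on SMXL4 and SMXL5 with genes that depend on SMAX1. Plants had grown for 7 days on 1/2 MS plates at 21 °C, with 12 h of light per day, and 15 seedlings were pooled in each replicate. Labels call the replicates biological and do not say whether they were grown at separate times. Values are FPKM, fragments per kilobase of transcript scaled to library size, so each gene's value is a share of its library. The depth of the libraries is unknown.

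In the chloroplast, pigment-binding LHC proteins collect light and pass its energy to photosystems II and I, which drive electrons from water through the cytochrome complex and plastocyanin to ferredoxin. Rubisco uses the resulting energy and reducing power to fix carbon dioxide, and Rubisco activase keeps it active. The chloroplast genome encodes the reaction-centre cores and the Rubisco large subunit, while the genes described here lie in the nucleus, are among the most strongly expressed genes of green tissue and are induced by light. In bulk RNA of whole seedlings, fewer green cells and less RNA per green cell cannot be told apart.

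Libraries are given as they are labelled, and replicates 1 and 2 of the double mutant are numbered by their sample titles, while the names of the deposited tables carry these numbers the other way round. SMXL5 itself was listed in WT at 3.47 to 5.18 FPKM, in smxl5-1 at 40.0 to 50.6 FPKM, in the double mutant at 9.0 to 18.2 FPKM and in smax1-2 at 5.11 to 5.29 FPKM. SMAX1 was listed in WT at 21.3 to 22.5 FPKM and in smax1-2 at 15.1 to 18.2 FPKM, and above WT in smxl5-1 at 24.7 to 34.6 FPKM and in the double mutant at 24.95 to 32.1 FPKM. SMXL4 was listed in WT at 1.81 to 3.01 FPKM, in smxl5-1 at 1.82 to 2.3 FPKM, in the double mutant at 2.75 to 4.85 FPKM and in smax1-2 at 2.43, 3.88 and 16.1 FPKM, with replicate 3 far above every other library. Where the mutations lie in these transcripts is not given in the sources used here, so these levels do not show whether a product is disrupted.

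Upstream windows were searched for a pair of short motifs known from light-regulated plant genes, and windows with many and with none are shown. Gene coordinates here and later are those of RefSeq, build TAIR10.1. In the 250 bases before each annotated gene start, the G-box CACGTG occurred in 10 of 50 members and in 6.49% of 27443 nuclear protein-coding genes. The I-box GATAAG, searched on both strands, occurred in 13 of 50 members and in 12.29% of those genes. These letters and counts are a description and not evidence of binding, and the annotated starts may lie away from the starts used in seedlings. In the following windows, written 5′ to 3′ along the gene with G-box and I-box letters in capitals, RBCS2B held 1 G-box and 3 I-boxes, LHCB6 held 1 of each, and PSAH2 held 2 G-boxes and 1 I-box. PSBS, the 1 member that passed the test in any comparison, held neither in this window.
RBCS2B (chr5:15382072-15382321, minus strand): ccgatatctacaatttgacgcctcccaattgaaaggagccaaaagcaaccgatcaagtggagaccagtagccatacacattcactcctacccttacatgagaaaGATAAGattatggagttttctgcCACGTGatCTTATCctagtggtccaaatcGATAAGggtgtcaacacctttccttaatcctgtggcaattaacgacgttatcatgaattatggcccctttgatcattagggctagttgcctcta
LHCB6 (chr1:5447881-5448130, minus strand): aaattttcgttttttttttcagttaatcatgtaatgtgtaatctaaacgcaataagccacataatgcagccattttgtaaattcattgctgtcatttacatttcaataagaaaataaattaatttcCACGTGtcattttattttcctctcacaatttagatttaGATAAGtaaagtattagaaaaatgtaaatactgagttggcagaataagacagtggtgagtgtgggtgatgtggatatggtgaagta
PSAH2 (chr1:19454548-19454797, plus strand): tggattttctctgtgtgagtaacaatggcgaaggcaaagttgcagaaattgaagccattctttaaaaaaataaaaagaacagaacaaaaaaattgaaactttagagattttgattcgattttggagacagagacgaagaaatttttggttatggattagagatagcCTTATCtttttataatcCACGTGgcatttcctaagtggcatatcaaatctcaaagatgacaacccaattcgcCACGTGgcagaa
PSBS (chr1:16869971-16870220, plus strand): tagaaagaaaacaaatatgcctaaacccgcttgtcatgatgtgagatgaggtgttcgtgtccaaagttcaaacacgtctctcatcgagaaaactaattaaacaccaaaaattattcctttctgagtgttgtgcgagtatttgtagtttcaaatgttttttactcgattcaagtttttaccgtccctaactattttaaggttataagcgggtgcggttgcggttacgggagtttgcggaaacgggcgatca

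The members together made up 22.2%, 21.0% and 19.6% of the summed value of all genes in the WT libraries. Their share was 16.7%, 18.4% and 16.9% in smxl5-1, 19.3%, 18.7% and 19.99% in the double mutant, and 20.3%, 19.8% and 18.8% in smax1-2. The smxl5-1 libraries were thus below all libraries of the other 3 genotypes, while the double mutant and smax1-2 overlapped WT. The WT libraries themselves were spread: replicate 1 held the highest WT value of 40 of the 47 members listed everywhere, and replicate 3 held the lowest of 42. Over these members the median coefficient of variation between replicates was 8.65% in WT, 8.50% in smxl5-1, 6.13% in the double mutant and 6.65% in smax1-2.

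In smxl5-1, 49 of 49 tested members had a lower mean than WT on the log2(FPKM + 1) scale, with a median difference of -0.28 against 0.07 over all genes tested. Over all genes, 37.9% had a difference below 0. No member passed the test (limma with Benjamini-Hochberg adjustment over all genes, adjusted p under 0.05), and 0.351% of all genes did. At an unadjusted p under 0.05 there were 17 of 49 members, against 12.2% of all genes. In 29 of 49 members every smxl5-1 library lay below every WT library, against 5.37% of all genes, and in none did they lie above (13.6% of all genes). With quantile normalization, which forces every library to the same set of values, 41 members were lower and 7 higher, and the median difference was -0.11. The members held 16.7% to 22.2% of the summed value of all genes, so this setting can also reduce a shift that they share. Leaving out WT replicate 1 moved the median to -0.23, with 46 lower and 3 higher.

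Against smax1-2, smxl5-1 had the lower mean in 48 of 49 members, with a median difference of -0.21 against -0.02 over all genes. Over all genes, 52.4% had the lower mean. This comparison uses no WT library, but it uses the same smxl5-1 libraries as that with WT and is not independent of it. No member passed the test (0.224% of all genes did), 9 had an unadjusted p under 0.05 (11.8% of all genes), and 22 did not overlap, all lower in smxl5-1 (9.04% of all genes were lower and 8.93% higher without overlap). With quantile normalization 36 were lower and 12 higher, and the median difference was -0.12. Of the 47 members listed everywhere, smxl5-1 had the lowest mean of the 4 genotypes in 41 and WT the highest in 31.

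The other organs of the seedling were followed by markers. The summed value of 12 root markers lay in WT at 94.0 to 115 FPKM and in smxl5-1 at 127 to 175 FPKM, with the double mutant at 88.9 to 125 FPKM and smax1-2 at 105 to 120.3 FPKM. The stele marker SKOR was listed at 0 in 9 of 12 libraries, and 11 markers were tested. Of these, 10 were higher in smxl5-1 than in WT, with a median difference of 0.45 against 0.07 over all genes, and none passed the test. Over all genes tested, 12199 of 19656 were higher in smxl5-1 than in WT. The summed value of 6 shoot epidermis and stomata markers lay in WT at 56.1 to 64.5 FPKM and in smxl5-1 at 51.5 to 77.9 FPKM, with the double mutant at 54.6 to 81.3 FPKM and smax1-2 at 77.8 to 81.5 FPKM. In smax1-2, 6 of 6 were higher than WT (13170 of 19656 genes were), 4 of them without overlap (12.9% of all genes). In smxl5-1 against smax1-2, 6 of 6 were lower (52.4% of all genes), with a median difference of -0.32 against -0.02 over all genes. None of these 6 markers passed the test in either comparison. The part of root and shoot proportions in the member values was not tested. Within groups, the library with the highest root marker sum held the lowest value of 42 of 47 members for WT (replicate 3) and of 27 for the double mutant (replicate 1). The corresponding library held the highest value of 25 members for smxl5-1 (replicate 2) and of 30 for smax1-2 (replicate 1).

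**Figure D1:**
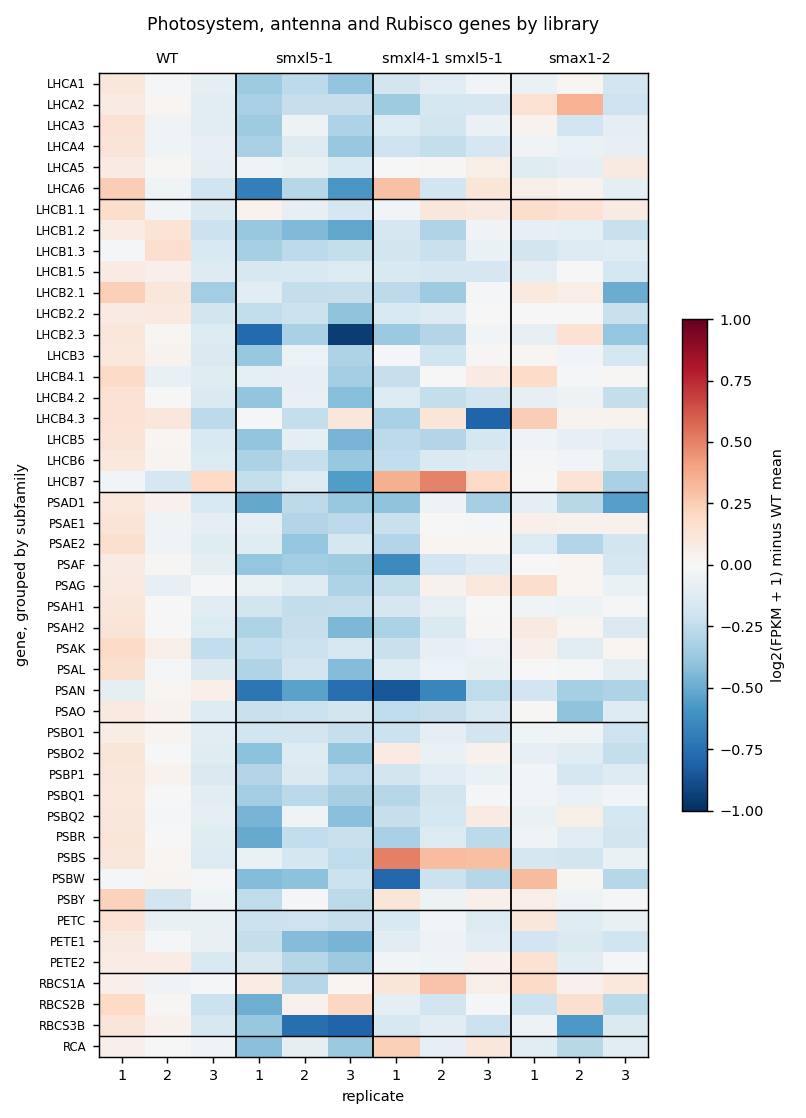
Each row is 1 of the 47 members listed in all 12 libraries, each column 1 library, and the colour is log2(FPKM + 1) minus the mean of the 3 WT libraries. Most rows are blue in the 3 smxl5-1 columns, where 44 to 46 members lay below the WT mean, as did 45 in WT replicate 3, and PSBS is red in the double mutant.

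In the double mutant, 39 of 49 members had a lower mean than WT, with a median difference of -0.12 against 0.07 over all genes, of which 39% had the lower mean. No member passed the test (1.13% of all genes did), 3 had an unadjusted p under 0.05 (11.9% of all genes), 9 lay below every WT library (6.61% of all genes) and 2 lay above every WT library (12.5% of all genes). With quantile normalization 34 were lower and 14 higher, and the median was -0.07. Without WT replicate 1 the median was -0.05, and without WT replicate 3 it was -0.19.

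In smax1-2, 37 of 49 members had a lower mean than WT, with a median difference of -0.06 against 0.09 over all genes, of which 33% had the lower mean. No member passed the test (0.0356% of all genes did), 1 had an unadjusted p under 0.05 (6.77% of all genes), 4 lay below every WT library (4.43% of all genes) and none lay above (12.9% of all genes). With quantile normalization 28 were lower and 20 higher, and the median was -0.03. Without WT replicate 1, 27 were lower and 22 higher with a median of -0.01, and without WT replicate 3 it was -0.13. All 3 comparisons with WT use the same WT libraries and are not independent. Those of smxl5-1 with WT, smax1-2 and the double mutant share the smxl5-1 libraries and are not independent either.

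Between the double mutant and smxl5-1, 42 of 49 members were higher in the double mutant, with a median difference of 0.13 against -0.01 over all genes, of which 49% were higher. Only PSBS passed the test, and it was higher (2.99% of all genes passed, 1.2% as higher). An unadjusted p under 0.05 was reached by 7 members (17.1% of all genes), and 16 lay above every smxl5-1 library (9.35% of all genes), with none below (11% of all genes). With quantile normalization 27 were higher and 20 lower, and the median difference was 0.016. Between the double mutant and smax1-2, PSBS again alone passed (1.55% of all genes did, 0.809% as higher), 36 of 49 members were lower in the double mutant (54.7% of all genes), and 4 had an unadjusted p under 0.05 (11.9% of all genes). The median difference was -0.05 against -0.03 over all genes, and with quantile normalization it was -0.03, with 29 lower and 19 higher. In that comparison 5 members did not overlap and were higher (8.16% of all genes) and 3 did not overlap and were lower (9.77% of all genes).

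**Figure D2:**
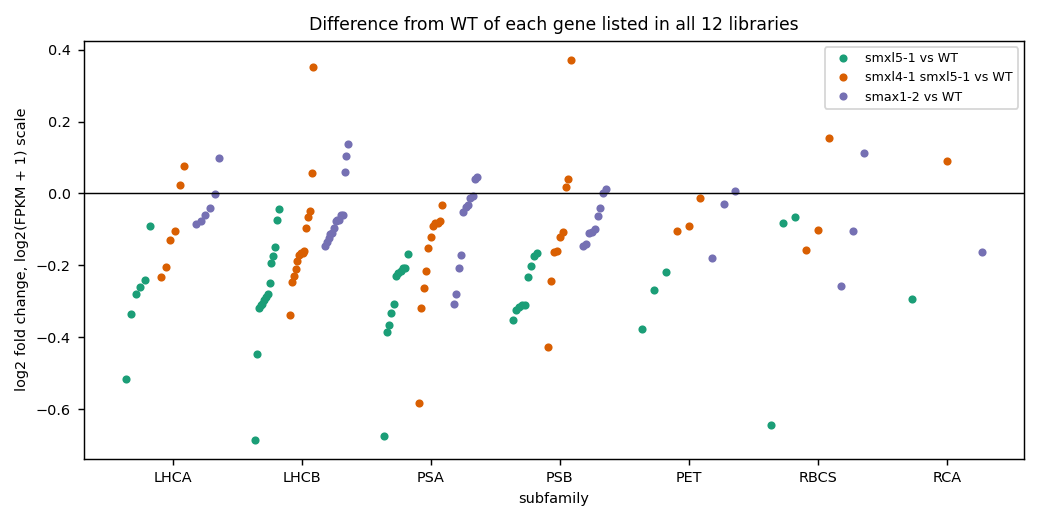
Each point is 1 member listed in all 12 libraries, the vertical axis is its log2 fold change against WT on the log2(FPKM + 1) scale, and members are placed by subfamily and coloured by mutant. All smxl5-1 points lie below 0, while the other mutants lie on both sides, with PSBS at 0.37 in the double mutant.

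The LHCA proteins surround photosystem I. Their summed value lay in WT at 19027, 17215 and 16337 FPKM, in smxl5-1 at 13811, 15581 and 13798 FPKM, in the double mutant at 15177, 15513 and 16318 FPKM, and in smax1-2 at 17554, 17644 and 15971 FPKM. All libraries of smxl5-1 and of the double mutant lay below all WT libraries, with mean differences of -17.9% and -10.6%, while smax1-2 overlapped WT. Of the 6 LHCA genes tested, 6 had a lower mean than WT in smxl5-1 (37.9% of all genes), 4 of them without overlap (5.37% of all genes). In the double mutant 4 did (39% of all genes), 2 of them without overlap (6.61% of all genes).

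LHCA4 (AT3G47470, chr3:17493343-17495033), whose protein pairs with that of LHCA1 in the outer antenna belt and which had the highest mean level of the 6 genes, stood in WT at 6003, 5327 and 5184 FPKM and in smxl5-1 at 4376, 5015 and 4216 FPKM. It stood in the double mutant at 4747, 4668 and 4884 FPKM and in smax1-2 at 5362, 5258 and 5201 FPKM. Both mutants with smxl5-1 lay below WT without overlap, but the differences of -0.28 ± 0.132 (SE) and -0.21 ± 0.132 on the log2 scale did not pass (limma adjusted p = 0.432 and 0.609).

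LHCA2 (AT3G61470, chr3:22745514-22747444) stood in WT at 3109, 2983 and 2729 FPKM, in smxl5-1 at 2347, 2503 and 2506 FPKM, in the double mutant at 2291, 2596 and 2619 FPKM, and in smax1-2 at 3270.2, 3735 and 2546 FPKM. It had the largest LHCA difference between the double mutant and WT, -0.23 ± 0.148, which did not pass (limma adjusted p = 0.605). LHCA6 (AT1G19150, chr1:6612630-6613972), a low-abundance antenna protein that links photosystem I to the NAD(P)H dehydrogenase-like complex, was singled out after its values were seen. The gene stood in WT at 145, 119 and 107 FPKM, in smxl5-1 at 75.7, 100.4 and 81.7 FPKM, in the double mutant at 150.4, 107 and 134 FPKM, and in smax1-2 at 128, 126 and 114 FPKM. All smxl5-1 libraries lay below all others, and the log2 fold change of 0.59 ± 0.154 between the double mutant and smxl5-1 did not pass (limma adjusted p = 0.0714), although it passed when transcript pieces longer than their reference were counted in full (adjusted p = 0.0076).

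The LHCB proteins form the mobile and inner antenna of photosystem II. Their summed value lay in WT at 72728, 71237 and 61107 FPKM, in smxl5-1 at 56628, 59219 and 55063 FPKM, in the double mutant at 58829, 60220.4 and 65809.8 FPKM, and in smax1-2 at 66574, 67419 and 61599 FPKM. Only smxl5-1 lay below WT without overlap, with a mean difference of -16.7%. Of the 15 LHCB genes tested, 15 had a lower mean than WT in smxl5-1 (37.9% of all genes), 7 of them without overlap (5.37% of all genes). In the double mutant 13 did (39% of all genes), 2 of them without overlap (6.61% of all genes).

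The 5 LHCB1 genes, which encode the main trimeric antenna protein, made up 36118 to 45911 FPKM of this sum. LHCB1.5 (AT2G34420, chr2:14522524-14523568) had the highest level of the 15 genes and stood in WT at 14115, 13795 and 12223 FPKM, in smxl5-1 at 11928, 12029 and 12161 FPKM, in the double mutant at 11983, 11885 and 11867 FPKM, and in smax1-2 at 12459.6, 13283 and 11791 FPKM. Libraries of smxl5-1 and of the double mutant lay just below the lowest WT library, and neither difference passed (-0.15 ± 0.173 with limma adjusted p = 0.792, and -0.16 ± 0.173 with 0.777). With quantile normalization the smxl5-1 difference of LHCB1.5 was 0.16.

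LHCB1.4 (AT2G34430, chr2:14524607-14525918) was listed in WT at 2781, 2482 and 2431 FPKM, in smxl5-1 at 1629, 1909.5 and 1686 FPKM, in the double mutant at 0, 2134 and 3011 FPKM, and in smax1-2 at 2651, 3025 and 2487 FPKM. In the double-mutant library listed at 0, replicate 1, the gene had a piece of 2007 FPKM classed as antisense exonic overlap, which does not count toward gene values, so no fold change is given. LHCB1.4 and LHCB1.5 lie 1038 bases apart on chromosome 2 in opposite directions, and their coding sequences are 91.5% identical with a longest identical run of 122 bases.

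Shares of the LHCB1 copies were compared without a test. LHCB1.2 made up 19.2% to 20.8% of the LHCB1 sum in WT and 16.8% to 18.2% in smxl5-1, and LHCB1.3 made up 24.8% to 28.1% and 24.7% to 26.9%. LHCB1.4 made up 5.4% to 6.2% in WT and 4.4% to 5.2% in smxl5-1, and LHCB1.1 15.6% to 18.0% and 17.9% to 20.3%. LHCB1.5 was higher without overlap, with 30.0% to 31.3% in WT and 32.4% to 33.7% in smxl5-1. LHCB1.1, LHCB1.2 and LHCB1.3, neighbours on chromosome 1, share 95.6% to 96.4% of their coding bases, and how reads were divided between them is uncertain.

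LHCB2.3 (AT3G27690, chr3:10255906-10257489), the most diverged copy of the LHCB2 antenna gene singled out after its values were seen, stood in WT at 1236, 1161 and 1040.4 FPKM and in smxl5-1 at 666, 913 and 592 FPKM. It stood in the double mutant at 884, 933 and 1124 FPKM and in smax1-2 at 1079, 1261 and 872 FPKM. The smxl5-1 libraries lay below WT without overlap, with a difference of -0.68 ± 0.184 that did not pass (limma adjusted p = 0.172). The share of LHCB2.3 in the LHCB2 sum was 12.1% to 16.8% in smxl5-1 and 16.9% to 19.1% in WT.

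At the other end of the scale, LHCB7 (AT1G76570), a rarely expressed relative of the antenna genes also singled out after its values were seen, stood in WT at 16.3, 14.6 and 19.2 FPKM and in smxl5-1 at 13.9, 15.0 and 10.9 FPKM. It stood in the double mutant at 21.5, 23.9 and 19.1 FPKM and in smax1-2 at 16.6, 18.3 and 13.1 FPKM. Its log2 fold change of 0.66 ± 0.162 between the double mutant and smxl5-1 did not pass (limma adjusted p = 0.0588), and 2 of 19 alternatives called it (adjusted p = 0.0327 with effective lengths and 0.0499 with quantile normalization).

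**Figure D3:**
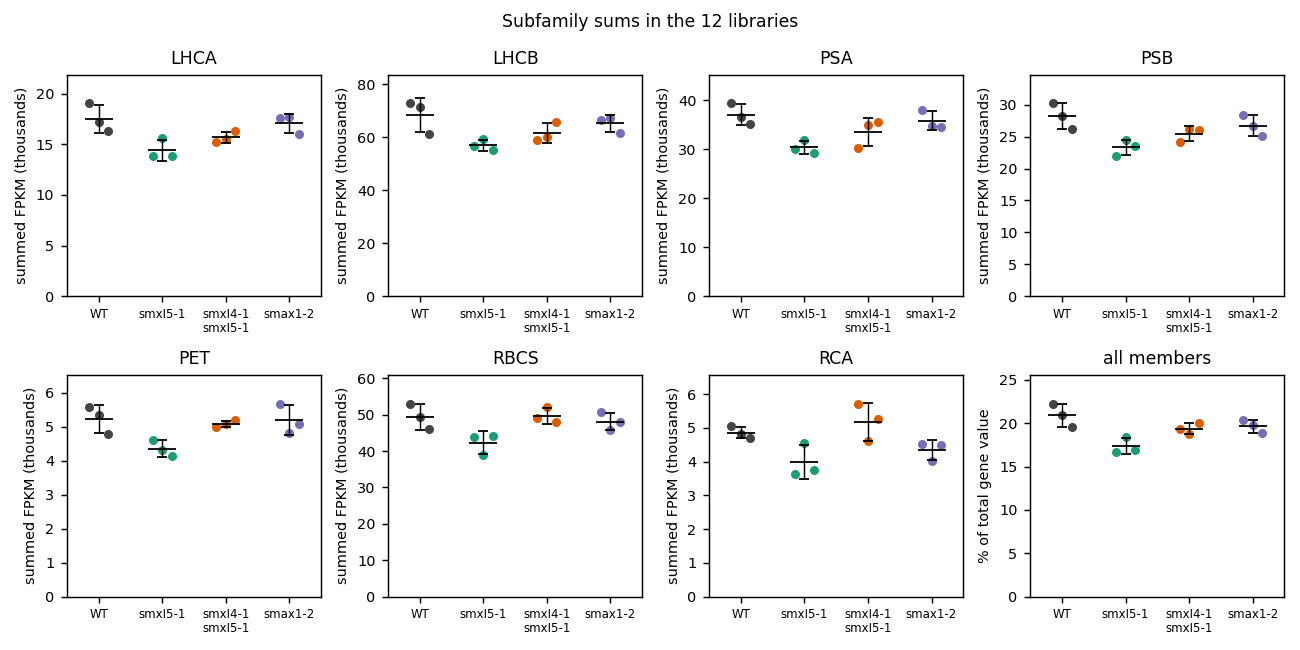
Each panel shows 1 subfamily's sum by genotype in units of 1000 FPKM, and the last panel shows all members as a percent of the summed value of all genes. Points are libraries in replicate order and bars are the mean ± SD of 3 libraries. In every panel the 3 smxl5-1 points lie below the 3 WT points.

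The PSA proteins are the small subunits of photosystem I that dock plastocyanin, ferredoxin and the antenna. Their summed value lay in WT at 39299.8, 36581 and 35170.4 FPKM, in smxl5-1 at 30036, 31789 and 29268 FPKM, in the double mutant at 30190.0, 34819 and 35531 FPKM, and in smax1-2 at 38065, 34803 and 34516 FPKM. Only smxl5-1 lay below WT without overlap, with a mean difference of -18.0%. Of the 12 PSA genes tested, 12 had a lower mean than WT in smxl5-1 (37.9% of all genes), 8 of them without overlap (5.37% of all genes). In the double mutant 11 did (39% of all genes), 3 of them without overlap (6.61% of all genes).

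PSAO (AT1G08380, chr1:2640803-2641934), a subunit needed to balance excitation between the photosystems and the PSA gene with the highest level, stood in WT at 6323, 6062 and 5362 FPKM, in smxl5-1 at 5057, 5086 and 5189 FPKM, in the double mutant at 4936, 5043 and 5287 FPKM, and in smax1-2 at 5952, 4472 and 5397 FPKM. Its differences from WT in smxl5-1 and the double mutant, -0.21 ± 0.148 in each, did not pass (limma adjusted p = 0.626 and 0.634), and quantile normalization turned the smxl5-1 value to 0.04.

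PSAN (AT5G64040, chr5:25628521-25629708), a lumenal subunit that helps plastocyanin dock, was singled out after its values were seen because it had the smallest p of the PSA genes. Its level stood in WT at 2726, 2931 and 3035 FPKM, in smxl5-1 at 1756, 2000.0 and 1703 FPKM, in the double mutant at 1612, 1841 and 2427 FPKM, and in smax1-2 at 2533, 2299 and 2333 FPKM. All 9 mutant libraries lay below all WT libraries. The differences were -0.67 ± 0.151 in smxl5-1, -0.58 ± 0.151 in the double mutant and -0.28 ± 0.151 in smax1-2, and none passed (limma adjusted p = 0.0969, 0.126 and 0.745). Without double-mutant replicate 3, the highest of its group, the double-mutant difference was -0.75 and passed (limma adjusted p = 0.0445). That library was the only one of the double mutant with a PSAN piece that fully matched a reference transcript. Replicates 1 and 2 held a piece with a new splice junction, as did WT replicates 1 and 3 and smxl5-1 replicates 1 and 2. WT replicate 2, smxl5-1 replicate 3 and every smax1-2 library held a full match. The part of the assembly in these differences was not tested.

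PSAD2 (AT1G03130, chr1:753307-754262), which encodes a copy of the ferredoxin-docking subunit, was listed in WT at 0, 0 and 1452 FPKM and in smxl5-1 at 0, 1349 and 0 FPKM. It was listed in the double mutant at 1151, 1463 and 1291 FPKM and in smax1-2 at 1374, 1399 and 1258 FPKM. In the 4 libraries listed at 0 a neighbouring gene was listed high instead. AT1G03140 had a piece of 2797 bases at 509.6 FPKM in WT replicate 1 and of 2804 bases at 345 FPKM in smxl5-1 replicate 3, against a reference of 1443 bases. AT1G03100 had a piece at 1645 FPKM in WT replicate 2 and 1386 FPKM in smxl5-1 replicate 1. No fold change is therefore given, and the direction of PSAD2 in the counts over members is not reliable. Without PSAD2 the PSA sum was 33718.2 to 39299.8 FPKM for WT, 29268 to 30440.2 FPKM for smxl5-1 and 29039 to 34240.7 FPKM for the double mutant, so smxl5-1 still did not overlap WT.

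The PSB proteins include the oxygen-evolving subunits and PSBS, the protein that triggers heat dissipation of excess light. Their summed value lay in WT at 30199, 28245 and 26264 FPKM, in smxl5-1 at 22020.0, 24401 and 23570.2 FPKM, in the double mutant at 24204, 26189.8 and 26052 FPKM, and in smax1-2 at 28332, 26739 and 25159 FPKM. Libraries of smxl5-1 and of the double mutant lay below WT without overlap, with mean differences of -17.4% and -9.75%. Of the 9 PSB genes tested, 9 had a lower mean than WT in smxl5-1 (37.9% of all genes), 5 of them without overlap (5.37% of all genes). In the double mutant 6 did (39% of all genes), 2 of them without overlap (6.61% of all genes).

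PSBS (AT1G44575, chr1:16870221-16873427) was the only member that passed the test in any comparison. It stood in WT at 1851, 1735 and 1559 FPKM, in smxl5-1 at 1633, 1516 and 1433 FPKM, in the double mutant at 2424, 2121 and 2111 FPKM, and in smax1-2 at 1523, 1509 and 1629.7 FPKM. All double-mutant libraries lay above all 9 others, while 6 of 9 PSB genes had a lower mean than WT. PSBS was higher in the double mutant than in smxl5-1 by 0.54 ± 0.108 on the log2 scale (limma adjusted p = 0.0299) and higher than in smax1-2 by 0.51 ± 0.108 (adjusted p = 0.0495). Against WT the difference of 0.37 ± 0.108 did not pass (limma adjusted p = 0.17).

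Both calls are close to the threshold. Leaving out 1 library at a time lost the call against smxl5-1 in 6 of 6 fits (limma adjusted p = 0.0506 to 0.0923), with values of 0.47 to 0.59. Over all 19 alternatives that call was lost in 10. The value ranged from 0.35, with the plain FPKM sum (limma adjusted p = 0.616), to 0.75, with pieces of classes =, c and j only. In smxl5-1 replicate 1, PSBS was assembled as a piece with a new splice junction and an overlapping piece, with no full match. Every other library held a full match, and the part of this in the call was not tested. Against smax1-2 the call was lost in 15 of 19, the 6 fits without a library included, with values of 0.45 to 0.55 and limma adjusted p up to 0.505.

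PSBR (AT1G79040, chr1:29735952-29737009), a small lumenal subunit near the oxygen-evolving complex and the PSB gene with the highest level, stood in WT at 8811, 8098 and 7446 FPKM, in smxl5-1 at 5715, 6842 and 6937 FPKM, in the double mutant at 6466, 7348 and 6748 FPKM, and in smax1-2 at 7849.5, 7547 and 7138 FPKM. Neither the smxl5-1 difference of -0.32 ± 0.157 nor that of the double mutant, -0.24 ± 0.157, passed (limma adjusted p = 0.447 and 0.611), although neither overlapped WT. PSBW (AT2G30570, chr2:13019028-13020311), a subunit that stabilises photosystem II supercomplexes, stood in WT at 3689, 3799 and 3689 FPKM, in smxl5-1 at 2761, 2796 and 3217 FPKM, in the double mutant at 2163, 3213 and 3059 FPKM, and in smax1-2 at 4630.4, 3756 and 3054 FPKM. It had the largest PSB difference between the double mutant and WT, -0.43 ± 0.19, which did not pass (limma adjusted p = 0.419).

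The PET genes PETE1 and PETE2 encode plastocyanin, and PETC encodes the Rieske iron-sulphur protein. PETE2 (AT1G20340) carried 91.0% to 93.1% of the plastocyanin value in every library. The gene stood in WT at 3732, 3735 and 3193 FPKM, in smxl5-1 at 3179, 2908 and 2753 FPKM, in the double mutant at 3468, 3434 and 3651 FPKM, and in smax1-2 at 3932, 3282 and 3507 FPKM. All smxl5-1 libraries lay below all others, and the difference from WT of -0.27 ± 0.127 did not pass (limma adjusted p = 0.434).

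PETE1 (AT1G76100, chr1:28553883-28554930), the minor copy, was singled out after its values were seen because it had the smallest unadjusted p of all members in smxl5-1. Its level stood in WT at 353, 328 and 314 FPKM, in smxl5-1 at 281, 246 and 239.7 FPKM, in the double mutant at 307, 318 and 308 FPKM, and in smax1-2 at 289.5, 299 and 288 FPKM. Its smxl5-1 difference of -0.38 ± 0.0764 missed the threshold (limma adjusted p = 0.076). PETC (AT4G03280, chr4:1440146-1441863) stood in WT at 1489, 1277 and 1275 FPKM, in smxl5-1 at 1155, 1166 and 1143 FPKM, in the double mutant at 1211, 1316 and 1224 FPKM, and in smax1-2 at 1454, 1234 and 1273 FPKM. Only smxl5-1 lay below WT without overlap, and its difference of -0.22 ± 0.0997 did not pass (limma adjusted p = 0.416).

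**Figure D4:**
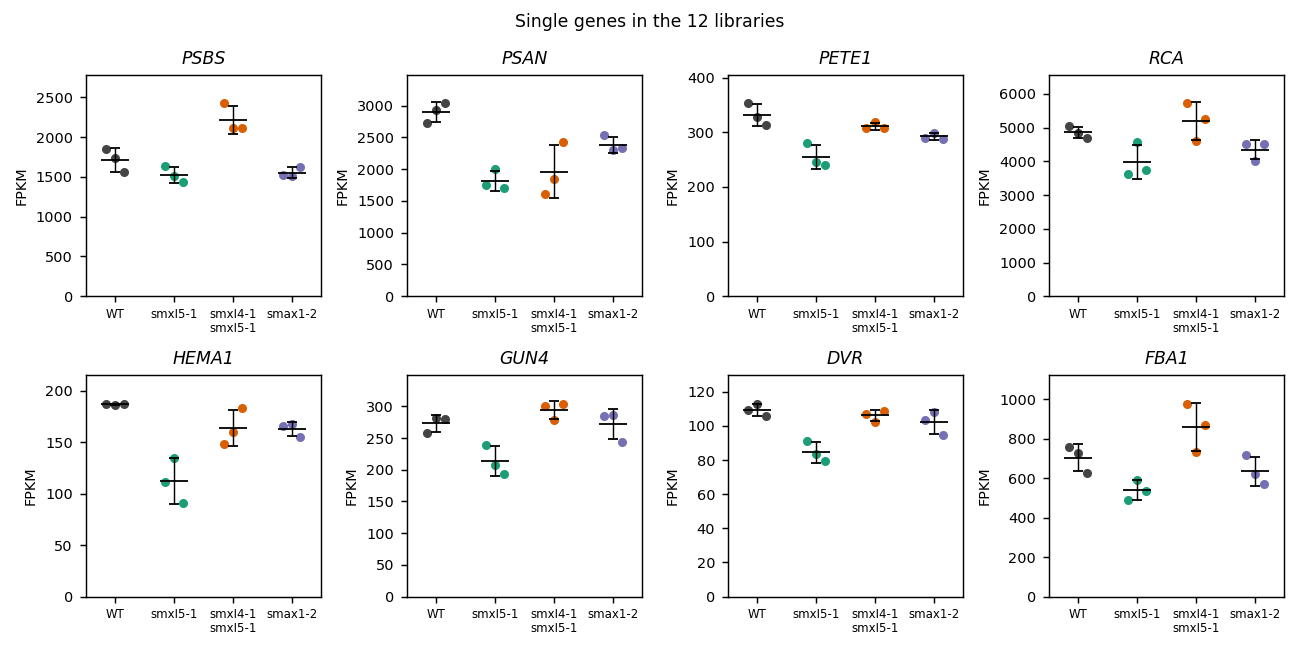
Each panel shows the FPKM of 1 gene by genotype, with points for libraries in replicate order and bars for the mean ± SD of 3 libraries. PSBS is highest in the 3 double-mutant libraries, PSAN, PETE1, HEMA1 and DVR are lower in smxl5-1 than in WT, and GUN4 and FBA1 are higher in the double mutant than in smxl5-1.

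The RBCS genes encode the small subunit of Rubisco. Their summed value lay in WT at 53017, 49266 and 46023 FPKM, in smxl5-1 at 43979, 38821 and 44277 FPKM, in the double mutant at 48994, 52164 and 47930.0 FPKM, and in smax1-2 at 50679, 45849 and 47869 FPKM. Only smxl5-1 lay below WT without overlap, with a mean difference of -14.3%, and it lay below the double mutant without overlap as well. Of the 3 RBCS genes tested, 3 had a lower mean than WT in smxl5-1 (37.9% of all genes), 1 of them without overlap (5.37% of all genes). In the double mutant 2 did (39% of all genes), 0 of them without overlap (6.61% of all genes).

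RBCS1A (AT1G67090, chr1:25048158-25049667) had the highest mean level of all genes measured. It stood in WT at 24204, 22739 and 23137 FPKM, in smxl5-1 at 24606, 19116 and 23657 FPKM, in the double mutant at 25399, 28523 and 24261 FPKM, and in smax1-2 at 26669.8, 24013 and 25107 FPKM. The smxl5-1 libraries overlapped WT, the difference of -0.06 ± 0.237 did not pass (limma adjusted p = 0.957), and it was 0.05 without smxl5-1 replicate 2. All double-mutant libraries lay above WT, with a difference of 0.15 ± 0.237 that did not pass either (limma adjusted p = 0.859).

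The 3 remaining RBCS genes lie in a row on chromosome 5 and are nearly identical. RBCS1B, RBCS2B and RBCS3B share 96.7% to 97.3% of 546 coding bases, and each is 90.1% to 90.5% identical to RBCS1A. The last 60 coding bases before the stop codon (RefSeq, build TAIR10.1), printed to show how little distinguishes them, differ at 2 positions, in capitals, and are the same in RBCS2B and RBCS3B.
RBCS1B (chr5:15384353-15384412, minus strand): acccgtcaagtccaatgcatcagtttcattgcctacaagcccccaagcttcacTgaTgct
RBCS2B (chr5:15381206-15381265, minus strand): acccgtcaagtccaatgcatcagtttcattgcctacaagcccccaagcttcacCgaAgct
RBCS3B (chr5:15377504-15377563, minus strand): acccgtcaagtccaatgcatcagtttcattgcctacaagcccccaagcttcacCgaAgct

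RBCS3B (AT5G38410, chr5:15376988-15378642) stood in WT at 17466, 16531 and 14347 FPKM, in smxl5-1 at 12317, 9539 and 9226 FPKM, in the double mutant at 14350.0, 14967 and 13873 FPKM, and in smax1-2 at 15467, 10773 and 14537 FPKM. RBCS2B (AT5G38420, chr5:15380907-15382071) stood in WT at 11347, 9996 and 8539 FPKM, in smxl5-1 at 7056, 10166 and 11393 FPKM, in the double mutant at 9245, 8675 and 9795 FPKM, and in smax1-2 at 8543, 11063 and 8226 FPKM. The share of RBCS2B in the pair was 50.7% to 55.3% in smxl5-1 replicates 2 and 3 and smax1-2 replicate 2, where its assembled piece was 745 to 792 bases long, and 35.6% to 41.4% in the other 9 libraries, where the piece was 629 to 684 bases long.

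The split between RBCS2B and RBCS3B thus moved with the length of the assembled pieces. RBCS3B differed from WT in smxl5-1 by -0.64 ± 0.222 without passing (limma adjusted p = 0.278), and the part of the split in that value was not tested. The sum of the pair lay in WT at 28812, 26527 and 22886 FPKM, in smxl5-1 at 19373, 19706 and 20619 FPKM, in the double mutant at 23595, 23642 and 23669 FPKM, and in smax1-2 at 24009.5, 21836 and 22762 FPKM. All smxl5-1 libraries lay below all others, unlike those of RBCS1A. RBCS1B was listed only with run-on fragments near the gene, at 2.89 to 80.9 FPKM in 10 libraries and in none of smxl5-1 replicates 1 and 3, which do not measure it.

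**Figure D5:**
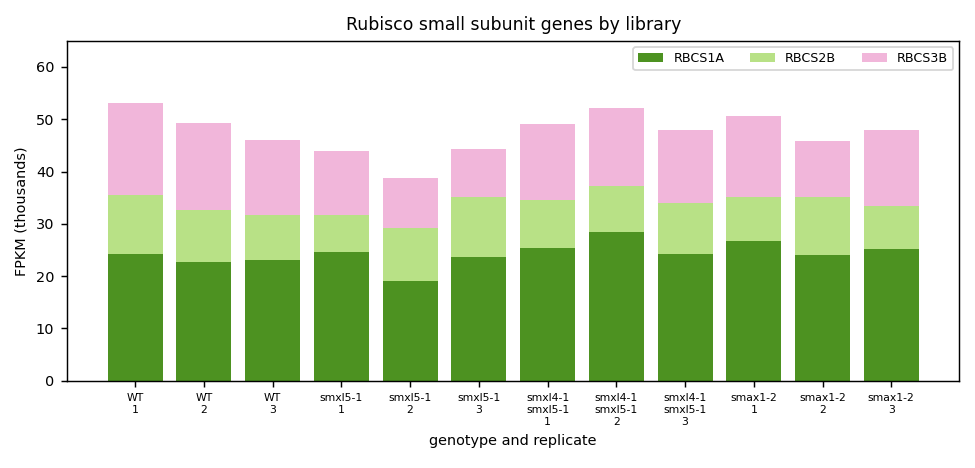
Bars are the 12 libraries and stack RBCS1A, RBCS2B and RBCS3B in units of 1000 FPKM. RBCS1A takes 45.7% to 55.9% of each bar, and the border between RBCS2B and RBCS3B shifts in smxl5-1 replicates 2 and 3 and smax1-2 replicate 2.

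RCA (AT2G39730, chr2:16570746-16573692) stood in WT at 5045, 4836 and 4707 FPKM, in smxl5-1 at 3633, 4568 and 3759 FPKM, in the double mutant at 5719, 4600.5 and 5253 FPKM, and in smax1-2 at 4525, 4016 and 4508 FPKM. Libraries of smxl5-1 and of smax1-2 lay below WT without overlap, and the double mutant lay above both. None of the differences passed, with -0.29 ± 0.146 in smxl5-1 against WT (limma adjusted p = 0.462) and 0.38 ± 0.146 in the double mutant against smxl5-1 (adjusted p = 0.213). The first of its reference transcripts took 49.7% to 53.1% of the gene value in 11 libraries, and in smax1-2 replicate 2 only the second was listed.

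Genes of neighbouring steps in photosynthesis were taken from lists chosen by function. In the chlorophyll synthesis list, 13 of 14 genes were tested (PORA was listed in 3 libraries and under the filter). In smxl5-1 against WT, 1 of them passed (0.351% of all genes did). HEMA1, the enzyme that commits glutamate to tetrapyrrole synthesis, stood in WT at 188, 186 and 187 FPKM, in smxl5-1 at 112, 135 and 90.7 FPKM, in the double mutant at 149, 159.7 and 183 FPKM, and in smax1-2 at 166, 168 and 155 FPKM. It fell in smxl5-1 by 0.75 on the log2 scale (SE 0.129, limma adjusted p = 0.0464). Leaving out 1 library at a time lost the call in 5 of 6 fits (limma adjusted p = 0.0803 to 0.179, and 0.0195 without smxl5-1 replicate 2), and over all 19 alternatives it was lost in 13 (up to 0.192). HEMA1, GUN4 and DVR were singled out because they passed.

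Between the double mutant and smxl5-1, all 13 tested chlorophyll synthesis genes were higher in the double mutant, with a median difference of 0.36, and 2 passed. GUN4, which activates the magnesium-inserting enzyme, stood in smxl5-1 at 239.7, 207 and 194 FPKM and in the double mutant at 301, 278 and 304 FPKM (0.46 ± 0.0969, limma adjusted p = 0.0342). Its level stood in WT at 258, 282 and 279.6 FPKM, overlapping the double mutant. DVR, the vinyl reductase of chlorophyll synthesis, stood in smxl5-1 at 91.4, 83.4 and 79.2 FPKM and in the double mutant at 107, 102 and 109 FPKM (0.33 ± 0.075, limma adjusted p = 0.0488), with WT at 109, 113 and 106 FPKM. The GUN4 call was lost in 9 of 19 alternatives (limma adjusted p up to 0.165) and the DVR call in 12 (up to 0.257), each in 5 of 6 fits without 1 library.

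In the Calvin cycle list, 15 of 16 genes were higher in the double mutant than in smxl5-1 (49% of all genes were). The median difference was 0.36 against -0.01 over all genes, and 1 gene passed as higher (1.2% of all genes did). FBA1, a plastid aldolase, stood in smxl5-1 at 492, 592 and 538 FPKM and in the double mutant at 978, 732 and 871 FPKM (0.66 ± 0.135, limma adjusted p = 0.0316), with WT at 761, 726 and 626 FPKM. Its call was lost in 10 of 19 alternatives (limma adjusted p up to 0.305), among them 4 of 6 fits without 1 library. Against WT, 16 of 16 Calvin cycle genes were lower in smxl5-1 (37.9% of all genes were). Their median was -0.25 against 0.07 over all genes. In the double mutant 11 of 16 were higher (11989 of 19656 genes were), with a median of 0.09 against 0.07 over all genes. None passed in either comparison (0.351% and 1.13% of all genes did).

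Of 4 further genes for small thylakoid proteins, all were lower than WT without overlap in smxl5-1 (5.37% of all genes). The same held in the double mutant (6.61% of all genes), and none passed. PSBTN, a small photosystem II subunit, stood in WT at 3295, 2946 and 3022 FPKM, in smxl5-1 at 1668, 1966 and 1895 FPKM and in the double mutant at 1911, 1739.7 and 2466 FPKM (limma adjusted p = 0.0872 and 0.129). CURT1B, which bends thylakoid membranes at grana margins, stood in WT at 2155, 2086 and 1916 FPKM and in smxl5-1 at 1498, 1406 and 1412 FPKM (limma adjusted p = 0.0834).

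The 10 regulators of photosynthesis genes were on both sides, with 4 lower and 6 higher in smxl5-1 than in WT. Of all genes tested, 12199 of 19656 were higher there. No regulator passed in any of the 6 comparisons (0.0356% to 2.99% of all genes did). None of the 9 electron transport and ATP synthase genes or the 6 genes of antenna insertion and phosphorylation passed in any comparison. The early light-induced gene ELIP1, whose protein binds pigments under excess light, stood in WT at 8.21, 6.87 and 9.84 FPKM, in smxl5-1 at 15.1, 12.1 and 10.3 FPKM, in the double mutant at 11.3, 12.3 and 12.6 FPKM, and in smax1-2 at 12.4, 13.8 and 13.7 FPKM. For ELIP1, all 9 mutant libraries lay above all WT libraries, and no difference passed (limma adjusted p = 0.192, 0.192 and 0.441). ELIP2, the other gene of this list, differed from WT by 0.45 in smxl5-1, 0.08 in the double mutant and 1.22 in smax1-2. It overlapped WT in the double mutant only, and none of its differences passed.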

How the data were processed

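The deposited tables, 1 per library, list assembled transcript pieces. The submitters' processing notes name TopHat2 2.0.14 and TAIR10, and the column names are those of Cuffcompare. No source used here names the assembler, annotation release or strand protocol, and per the series design text the authors used DESeq2, whose output is not used here. The deposited abundances are FPKM values. The deposited coverage signal (read depth per base) and the percent of the major isoform, per the file headers, were read but enter no test.

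A gene's value in a library was the sum of FPKM over its pieces in the overlap classes (=, c, j, e, o; 345442 of 353616 pieces), each multiplied by its length, capped at the reference length, over the reference length. The pieces left out are mostly very short and held 23.7% to 51.5% of the summed FPKM, which inflates with short length. Their share was 38.2% to 50.1% in WT and 23.7% to 36.1% in smxl5-1. It was 35.1% to 51.5% in the double mutant and 38.3% to 49.7% in smax1-2. The smxl5-1 libraries thus lay below those of WT and smax1-2, and the part of this difference in the member values was not tested. Summed gene values were 971444 to 1059577 per library. A gene with no such piece was set to 0. These are not counts, so depth is unknown and no counting interval is given.

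The 19656 genes that reached 1 FPKM in 3 or more libraries entered 1 model of the 4 groups. It was fitted to log2(FPKM + 1) with limma 3.58.1 (limma-trend, R 4.3.3). Each of the 6 comparisons had its own Benjamini-Hochberg adjustment over all genes tested, with no correction for the number of comparisons. Fold changes on this scale understate changes of low genes. A gene was called at an adjusted p under 0.05. The code was tested on simulated data. Members, lists and the naming rule were chosen with earlier results of these data known. The rule names, per subfamily, the member with the highest mean and the largest difference between the double mutant and WT. It also names every called member, RCA, members not listed in all libraries, and up to 3 genes per further list. The latter had the smallest p of their list in the double mutant against WT, and not all of them are described here. Genes outside the rule are said to be singled out. Replicate numbers did not pair the samples (same-number correlations of deviations from group means were -0.10 to 0.07), so the fit has no block. Alternatives changed the pseudocount (0.1), filter, gene value, scaling, variance model, samples, block and single libraries, and 2 were added after seeing the data. Sequences and loci come from RefSeq, build TAIR10.1; the deposited tables hold no coordinates. Coding identity was from global alignment of the most alike annotated coding sequences. Python 3.11.15, numpy 2.4.6, pandas 2.3.3 and matplotlib 3.10.9 were used.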

Additional observations from a re-analysis of the deposited data

Results flagged for a closer look

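3 members had signal in piece classes that do not count toward gene values, above the level in WT. LHCB1.4, listed at 0 in double-mutant replicate 1, had a piece of 2007 FPKM there classed as antisense exonic overlap, near its level of 2134 FPKM in replicate 2. LHCB7 had an intronic piece of 63.7 FPKM in double-mutant replicate 3, against a gene value of 19.1 FPKM. RBCS1B had run-on pieces of 80.9 FPKM in double-mutant replicate 2, and of 4.31 to 34.0 FPKM in WT. Their origin was not tested.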

How the results depend on the processing

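Of the results that answer a comparison, 194 values under an alternative stayed within the limits set for them and 34 moved. Of the values for single genes and for all genes called, 560 stayed, 69 lost their call, 51 moved and 4 reversed. The median member difference of smxl5-1 from WT was -0.36 with median-of-ratios scaling and with scaling to all genes but the members, and -0.11 with quantile normalization, which also gave -0.12 for smxl5-1 against smax1-2, 0.016 for the double mutant against smxl5-1, and reversed LHCB1.5 (0.16) and PSAO (0.043) in smxl5-1 against WT. It shifted the median of all genes in smax1-2 against WT from 0.09 to -0.02. For smax1-2 against WT the member median was -0.14 with median-of-ratios scaling and -0.13 to -0.0079 leaving out 1 library. The plain FPKM sum gave PSBS 0.048 in smxl5-1 against WT, and RBCS1A there ranged from -0.14 to 0.047 leaving out 1 library. Members called in the double mutant against WT were 0 to 1 leaving out 1 library. Against smxl5-1 they were 2 with effective lengths, 3 without the length cap, and 0 with the plain sum, the 2 groups alone, the replicate block and each left-out library. Against smax1-2 they were 0 with pseudocount 0.1, no filter, the plain sum, fewer class codes, median-of-ratios or quantile scaling, the 2 groups alone, the replicate block, scaling to all genes but the members and each left-out library. All genes called in smxl5-1 against WT were 69, with 9 for the plain sum, 126 with effective lengths, 37 with quantile normalization, 32 with the 2 groups alone, 25 with the replicate block and 23 to 59 leaving out 1 library. Titles and the names of the deposited tables number double-mutant replicates 1 and 2 in opposite ways, which touches the replicate block and the same-number correlations, and the crossed numbering was not run. The causes were not tested. FPKM without counts hides the depth of each value.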
